A study of Mus musculus with 4 samples.

Results

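The AP‐2 family of transcription factors was followed across mouse stem cell states by RNA‐seq. The family has 5 genes, called Tfap2a to Tfap2e, which the NCBIM37 annotation still lists as Tcfap2a, Tcfap2b, Tcfap2c, Tcfap2d and Tcfap2e. They were found by their Ensembl identifiers, and all 5 were present among the 37620 genes counted. The genes were taken by family name and not by a level or a difference. Of the 5, Tfap2a and Tfap2c had at least 1 CPM (counts relative to library size) in at least 1 sample, and Tfap2b, Tfap2d and Tfap2e did not.

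AP‐2 proteins bind DNA as dimers through a basic region and a helix‐span‐helix domain, and they prefer a GC‐rich palindrome. Tfap2c is known for its role in the trophectoderm, in the self‐renewal of trophoblast stem cells and in primordial germ cells, whereas Tfap2a is known for surface ectoderm, neural crest and craniofacial development. Tfap2b acts in kidney, neural crest and limb, Tfap2d in the midbrain and retina, and Tfap2e in the olfactory bulb.

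The study asked how signaling inputs shift the gene network of pluripotent cells, and 4 of its samples were analysed, with 1 sample per condition. Of these, 3 were R1 mouse embryonic stem cells (mESCs) cultured for 2 days, all of them without LIF and with 3 µM CHIR99021, an inhibitor of GSK3, and 1 µM PD0325901, an inhibitor of MEK. The first received no further factor (2i−L), and the second a JAK inhibitor at 2.0 µM (2iJ). The third received the JAK inhibitor together with 10 ng/ml BMP4 and 10 µM of an inhibitor of ALK5 (2iJ+B−A). The paper describes its tests of signaling responses as done in medium that contained serum. The fourth sample was trophoblast stem cells (TSCs) of the F4 line, whose label names no treatment. Each cell type is therefore represented by 1 line, and in comparisons with TSCs the line, the medium and the cell type cannot be told apart. BMP4 and the ALK5 inhibitor were added together, so their separate contributions cannot be told apart either.

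Between 33913984 and 36964392 read pairs were counted on genes per sample, and the limit of detection was set at 3 counts, which is 0.07986 to 0.09021 CPM depending on the sample. The labels of mESCs and TSCs were checked against marker genes, which cannot check the labels of the 3 mESC conditions. Pou5f1, the core pluripotency factor, had 658 to 899 CPM in the 3 mESC samples and 1.34 CPM in TSCs. Elf5, a TSC factor, had at most 0.133 CPM in mESCs and 298 CPM in TSCs. The separation was smaller for other naive pluripotency markers, as Sox2, Zfp42 and Esrrb had 154, 123 and 248 CPM in TSCs. Summed over 7 markers, fibroblast genes had between 3.50 and 37.6 CPM and were lowest in TSCs, where Col1a2, Dcn and Lum had 0 counts. With 1 sample per condition in the files analysed here, every interval covers counting error only, and differences between cultures could not be measured. In samples of whole cultures, a change in the share of cells that express a gene and a change in RNA per cell cannot be told apart.

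The AP‐2 genes lie on 4 chromosomes. In NCBIM37, Tfap2a spans chr13:40811044-40829192 on the minus strand (ENSMUSG00000021359), Tfap2c spans chr2:172375093-172384122 on the plus strand (ENSMUSG00000028640), and Tfap2e spans chr4:126393250-126413484 on the minus strand (ENSMUSG00000042477). Tfap2d at chr1:19093103-19156427 (ENSMUSG00000042596) and Tfap2b at chr1:19198995-19228815 (ENSMUSG00000025927) are neighbours on the plus strand with 42.6 kb between them. Coding sequences of the family were between 64.4% and 72.9% identical over the 10 pairs of genes, and Tfap2a with Tfap2b was the most similar pair. The longest stretches that the expressed members share exactly with another member are shown because they bear on whether reads of one gene could be counted on another. Capitals mark bases that are identical in both genes.

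Tfap2a and Tfap2b, 29 coding bases, in Tfap2a at chr13:40812584-40812612 (−): ACGGCCCTGCAGAACTATCTCACCGAGGC
Tfap2c and Tfap2e, 22 coding bases, in Tfap2c at chr2:172379545-172379566 (+): AAGTCCAAAAATGGAGGCCGGT
Tfap2a and Tfap2c, 17 coding bases, in Tfap2a at chr13:40814684-40814700 (−): GAAGCCGTCCACCTAGC

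Each stretch lies within 1 coding exon and is far shorter than a read of 126 bases. Windows of 126 bases were taken along the protein‐coding transcripts, 3241 for Tfap2a and 3151 for Tfap2c. None of them occurred exactly in a protein‐coding transcript of another gene, and noncoding transcripts were not searched.

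Tfap2c was the most abundant AP‐2 gene in every sample. It had 5110 counts in 2i−L, 4868 in 2iJ, then 4263 in 2iJ+B−A and 11950 in the TSCs. Relative to library size these were 154 CPM in 2i−L (95% Poisson interval 150 to 158), 142 CPM in 2iJ (138 to 146), then 114 CPM in 2iJ+B−A (110.1 to 117) and 340.4 CPM in the TSCs (334 to 347). TSCs thus stood above all mESC samples, and the mESC samples were ordered 2i−L, 2iJ, 2iJ+B−A with intervals that did not overlap. Among the 14263 genes that passed the filter of 1 CPM, Tfap2c was at percentile 96.8 of expression in TSCs and between percentiles 85.8 and 89.6 in mESCs.

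Tfap2a followed another order. It had 389 counts in 2i−L, 511 in 2iJ, then 1539 in 2iJ+B−A and 117 in the TSCs, or 11.7 CPM (10.6 to 12.9), 14.9 CPM (13.6 to 16.2), 41.0 CPM (38.9 to 43.1) and 3.33 CPM (2.76 to 3.99). The level was therefore highest in 2iJ+B−A and lowest in TSCs, the sample with the most Tfap2c, and no neighbouring intervals in this order overlapped. Its percentile of expression among the genes that passed the filter was 64.7 in 2iJ+B−A and 22.9 in TSCs.

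**Figure D1:**
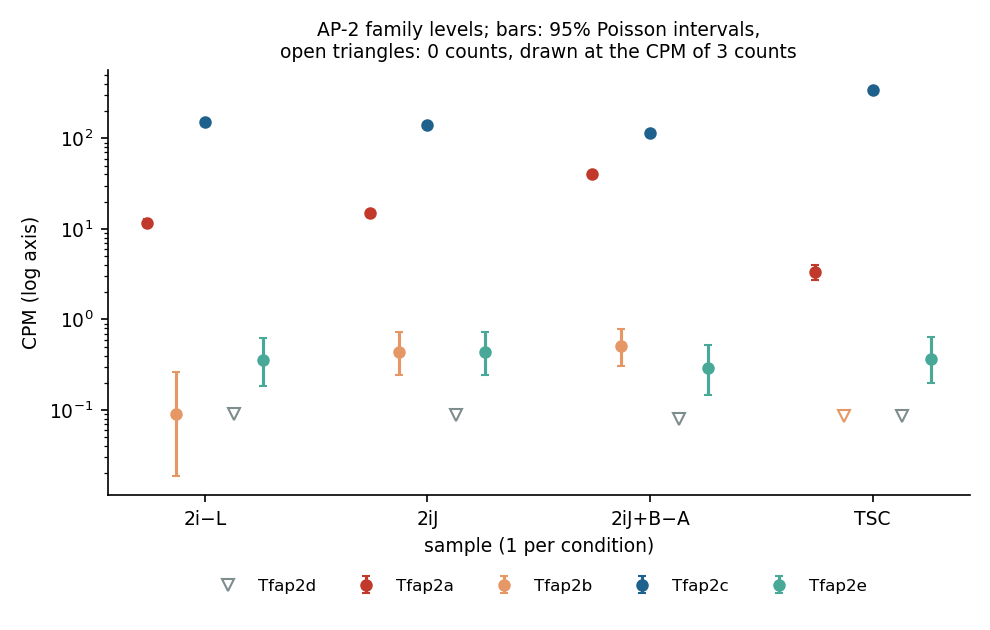
Level of each AP‐2 gene in CPM (log axis) in the 4 samples, 1 per condition, with 95% Poisson intervals, and open triangles at the CPM of 3 counts where a gene had 0 counts. Tfap2c lies between 114 and 340.4 CPM, Tfap2a between 3.33 and 41.0 CPM, and the other members stay below 1 CPM.

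The remaining members were at or near the limit of detection. Tfap2d had 0 counts in all 4 samples, under the limit of 3 counts. Tfap2e had 12 counts in 2i−L, 15 in 2iJ, then 11 in 2iJ+B−A and 13 in the TSCs, between 0.293 and 0.437 CPM, and these levels did not differ beyond counting error. Tfap2b had 3 counts in 2i−L, 15 in 2iJ, then 19 in 2iJ+B−A and 0 in the TSCs, where 3 counts would be 0.08545 CPM. The 15 counts in 2iJ were 4.84 times the level of the 3 counts in 2i−L after scaling, with a wide interval of 1.37 to 26.1, and 2iJ+B−A had 1.16 times the level of 2iJ (0.557 to 2.45). With the TSC library set at 3 counts, Tfap2b was 5.11‐fold lower in TSCs than in 2iJ and 5.92‐fold lower than in 2iJ+B−A. With the counting error of both samples, the 95% lower limits of these ratios were 3.67 and 4.36.

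The members were then compared with each other per length of annotated exon, in RPKM, which divides CPM by exon length in kilobases. The 5 members summed to 45.6 RPKM in 2i−L, 43.4 in 2iJ, then 43.7 in 2iJ+B−A and 93.7 in the TSCs, so that the sum in the 3 mESC samples lay within a narrow range and TSCs had the largest. Tfap2c made up 91.7% of this sum in 2i−L, 88.8% in 2iJ, then 70.6% in 2iJ+B−A and 98.7% in the TSCs. Tfap2a made up 7.92%, 10.6%, 28.9% and 1.10% in the same order. Tfap2b, Tfap2d and Tfap2e together held at most 0.640%. The ratio of Tfap2c to Tfap2a RPKM was 11.6 in 2i−L (10.4 to 12.9), 8.40 in 2iJ (7.66 to 9.22), 2.44 in 2iJ+B−A (2.30 to 2.59) and 90.0 in TSCs (75.1 to 109). The mix of the main AP‐2 genes in 2iJ+B−A was thus the farthest from that of TSCs, while the sum over the family was close to that of the other mESC samples.

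**Figure D2:**
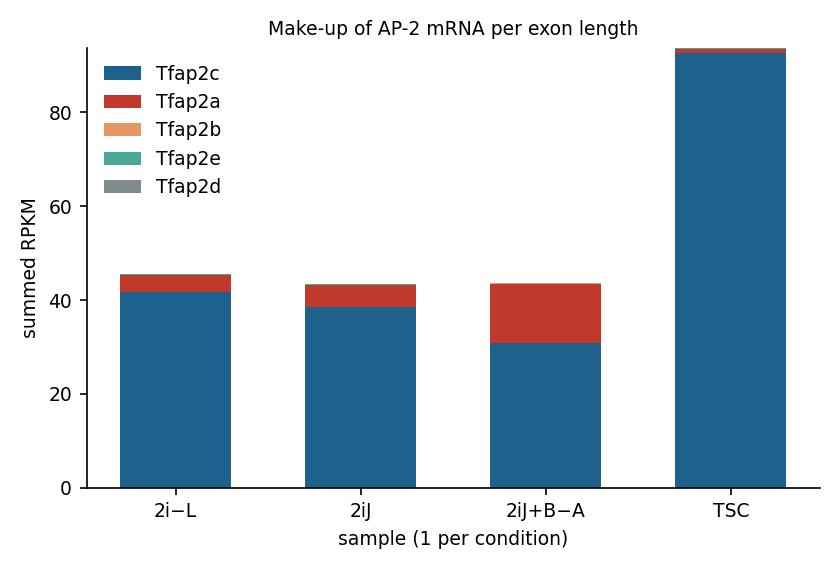
Summed RPKM of the 5 AP‐2 genes in each sample (1 per condition), stacked by gene, without error bars. The mESC bars reach 43.4 to 45.6 RPKM and the TSC bar 93.7 RPKM, and the Tfap2a segment is widest in 2iJ+B−A, at 28.9% of the bar.

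The first comparison asked how JAK inhibition differed from 2i without LIF alone. Tfap2a was 1.27‐fold higher in 2iJ than in 2i−L (1.11 to 1.46), a log2 ratio of 0.33 on the scale of CPM plus 0.5 that is used for all log2 ratios here. Tfap2c was 1.08‐fold lower (1.04 to 1.13), a log2 ratio of -0.12. Neither reached a log2 ratio of 1 in size, the threshold of 2‐fold used throughout, so 0 of the 2 members that passed the filter were past it, against 2.15% of all 14263 genes (1.23% higher and 0.918% lower).

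The next comparison asked what BMP4 and the ALK5 inhibitor added to 2iJ. Tfap2a was 2.75‐fold higher in 2iJ+B−A (2.49 to 3.05), with a log2 ratio of 1.43 (1.29 to 1.57) at percentile 97.2 of all genes. Tfap2c was 1.25‐fold lower (1.20 to 1.30), with a log2 ratio of -0.32 (-0.38 to -0.26). Tfap2a was thus the 1 member of 2 past 2‐fold, against 8.97% of all genes (5.81% higher and 3.17% lower). Compared with 2i−L in place of 2iJ, Tfap2a was 3.50‐fold higher (3.13 to 3.92) and Tfap2c 1.35‐fold lower (1.30 to 1.41).

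TSCs were then compared with both mESC conditions. Against 2iJ, Tfap2a was 4.47‐fold lower in TSCs (3.65 to 5.51) and Tfap2c 2.401‐fold higher (2.32 to 2.48), with log2 ratios of -2.005 and 1.26. Both members that passed the filter were past 2‐fold, which 37.0% of all genes also were (19.4% higher and 17.6% lower), so that a difference of this kind was common between TSCs and mESCs. Against 2iJ+B−A, Tfap2a was 12.3‐fold lower in TSCs (10.2 to 15.0) and Tfap2c 3.00‐fold higher (2.90 to 3.11), with log2 ratios of -3.43 and 1.58. Again both were past 2‐fold, against 32.6% of all genes (16.4% higher and 16.2% lower), and the Tfap2a ratio was at percentile 2.5. These comparisons share the 2iJ, the 2iJ+B−A or the TSC sample and are not independent of each other.

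**Figure D3:**
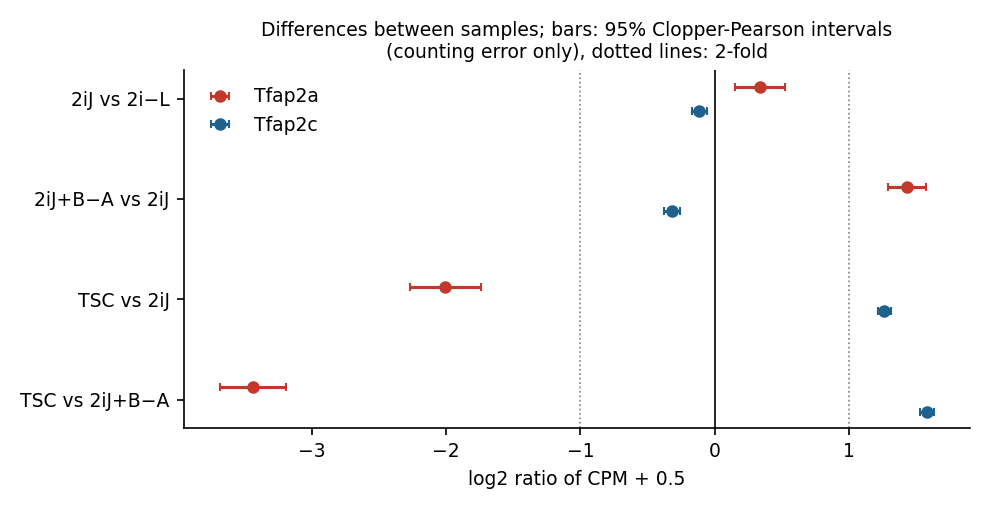
Log2 ratio of CPM plus 0.5 for Tfap2a and Tfap2c in the 4 comparisons (1 sample per condition), with 95% Clopper–Pearson intervals that cover counting error and dotted lines at 2‐fold. Tfap2a lies at 1.43 for 2iJ+B−A against 2iJ and at -3.43 for TSCs against 2iJ+B−A, while Tfap2c lies at -0.32 and 1.58.

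Markers of other cell types also differed between these samples. Trophoblast stem cell markers (7 genes) summed to 38.2 CPM in 2i−L, 43.9 in 2iJ, then 219 in 2iJ+B−A and 1291 in the TSCs, and 9 naive pluripotency markers to 5602, 4897, 3053 and 542 CPM. Differentiated trophoblast markers (7 genes) summed to 2.10, 6.79, 42.6 and 30.5 CPM. In 2iJ+B−A this sum came mainly from Gcm1, a factor of syncytiotrophoblast, with 28.0 CPM, and from Plac1 with 14.2 CPM, while the giant cell and spongiotrophoblast genes Prl3d1, Prl2c2 and Tpbpa had 0 counts. Primitive endoderm markers (6 of 7 matched) summed to 5.59, 5.85, 24.9 and 35.0 CPM. Mesoderm markers (5 genes) summed to 4.99, 4.72, 3.33 and 25.8 CPM, and neural markers (3 of 4 matched) to 82.7, 76.1, 97.0 and 82.2 CPM. Single genes carried several of these sums. In TSCs the mesoderm sum was mainly Kdr, with 22.25 CPM. From 2iJ to 2iJ+B−A the neural genes Nes and Tubb3 rose, while Pax6 fell from 3.35 to 0.559 CPM. Of the trophoblast stem cell markers, Eomes fell from 10.7 to 2.74 CPM and Elf5 stayed at 0.133 CPM or less. The others rose, Hand1 the most, from 1.31 to 103.5 CPM. The part of these cell types in the Tfap2a level of 2iJ+B−A was not tested.

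Lists of AP‐2 cofactors, of genes of cell types where AP‐2 proteins act and of described targets were examined next, beginning with cofactors. Of 10 cofactors and regulators, all passed the filter, and 0 were past 2‐fold in 2iJ compared with 2i−L (2.15% of all genes). In 2iJ+B−A compared with 2iJ, 3 were higher and 0 lower (5.81% and 3.17% of all genes). The median log2 ratio was 0.13 there, beside -0.002 for all genes. Cited1 and Cited4, of the CITED family that bridges AP‐2 to p300 and CBP, were 2 of the 3. Cited1 had 2.62 CPM in 2i−L, 2.68 in 2iJ, then 10.4 in 2iJ+B−A and 54.5 in the TSCs, whereas Cited4 had 0.301, 0.495, 3.46 and 0.256 CPM. Cited4 was thus highest in 2iJ+B−A, as Tfap2a was. It had only 17 counts in 2iJ and 9 in TSCs, and their log2 ratio of -0.396 had an interval that included 0 (-0.845 to 0.127). A lower Cited4 level in TSCs than in 2iJ, as seen for Tfap2a, was therefore not shown. Cited1 was highest in TSCs, as was Tfap2c. Kctd1, which represses AP‐2 activity, was the third, with 2.05, 2.53, 7.40 and 35.6 CPM. Cited4 passed the filter only through 2iJ+B−A, where it is counted as higher. The coactivators Ep300 and Crebbp had log2 ratios of -0.53 and -0.41 in 2iJ+B−A. In TSCs compared with 2iJ, 4 of the 10 were higher (Cited1, Cited2, Kctd1 and Kctd15) and 0 lower. Compared with 2iJ+B−A, 2 were higher and 1 lower. The lower gene was Cited4, again through the sample that let it pass the filter. Of all genes, 37.0% and 32.6% were past 2‐fold in these comparisons, near the shares of the cofactors.

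Of 14 transcription factors of trophoblast stem cells, which act beside Tfap2c, 4 were higher past 2‐fold and 0 lower in 2iJ compared with 2i−L (Cdx2, Gata2, Gata3 and Id2). For all genes the shares in this comparison were 1.23% higher and 0.918% lower. In 2iJ+B−A, 8 of the 14 were higher and 1 lower than in 2iJ, beside 5.81% and 3.17% of all genes. Their median log2 ratio was 1.20. Cdx2, which specifies trophectoderm, had 2.62 CPM in 2i−L, 6.70 in 2iJ, then 33.6 in 2iJ+B−A and 45.1 in the TSCs, and Gata3 had 2.68, 7.43, 19.1 and 104 CPM. Gata2 had 9.92, 23.1, 236 and 84.3 CPM and so was highest in 2iJ+B−A, as Tfap2a was. Eomes had 12.4, 10.7, 2.74 and 179 CPM, and Elf5 had 0.0301, 0.0582, 0.133 and 298 CPM, so that both were high in TSCs alone, where Tfap2c was highest. In TSCs, 11 of the 14 were higher and 2 lower than in 2iJ, beside 19.4% and 17.6% of all genes, and 8 were higher and 1 lower than in 2iJ+B−A, beside 16.4% and 16.2%. Elf5 passed the filter only through TSCs.

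Of 18 genes of the trophectoderm epithelium and its cavity, 0 were past 2‐fold between 2iJ and 2i−L (2.15% of all genes). In 2iJ+B−A, 9 of the 18 were higher and 0 lower than in 2iJ, beside 5.81% and 3.17% of all genes. Their median log2 ratio was 0.98. The simple epithelial keratin Krt18 had 80.8 CPM in 2i−L, 104 in 2iJ, then 521 in 2iJ+B−A and 1395 in the TSCs. The polarity gene Pard6b had 24.9, 23.3, 64.5 and 153 CPM and the tight junction gene Cldn4 had 75.9, 62.7, 126 and 471 CPM. Transport genes of the cavity went the other way, as the water channel Aqp3 had 88.7, 60.5, 56.7 and 9.06 CPM and the sodium pump subunit Atp1b1 had 184, 118, 97.4 and 28.9 CPM. In TSCs, 13 of the 18 were higher and 2 lower than in 2iJ (19.4% and 17.6% of all genes), and 9 were higher and 2 lower than in 2iJ+B−A (16.4% and 16.2%).

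Germ cell factors, which act with Tfap2c in primordial germ cells, were compared next. Of 8 genes, 0 were past 2‐fold between 2iJ and 2i−L, 0 were higher and 4 lower in 2iJ+B−A than in 2iJ, and 7 were lower in TSCs than in 2iJ and than in 2iJ+B−A. The shares of all genes that were lower were 3.17% in 2iJ+B−A and 17.6% and 16.2% in TSCs. Prdm1, the repressor that starts the germ cell programme, had 48.6 CPM in 2i−L, 53.6 in 2iJ, then 5.14 in 2iJ+B−A and 1.99 in the TSCs. The RNA regulator Nanos3 had 11.8, 15.9, 4.45 and 0.427 CPM. Prdm14 had 58.7, 42.1 and 27.3 CPM in mESCs and 0 counts in TSCs. The median log2 ratio of the list was -1.03 in 2iJ+B−A and -4.29 in TSCs compared with 2iJ, which stays at -4.29 with Prdm14 set at 3 counts.

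Genes of the surface ectoderm and the neural crest, where Tfap2a acts, were compared in the same way. Of 11 surface ectoderm genes, 8 passed the filter, and the epidermal genes Trp63, Krt14 and Krt5 did not. Among the 8, 2 were higher past 2‐fold in 2iJ than in 2i−L (Msx1 and Foxi3), 5 were higher and 0 lower in 2iJ+B−A than in 2iJ, 3 were higher and 1 lower in TSCs than in 2iJ, and 1 was higher and 4 lower in TSCs than in 2iJ+B−A. Of all genes, 2.15%, 8.97%, 37.0% and 32.6% were past 2‐fold in these comparisons, in the same order. Dlx5, counted as higher in 2iJ+B−A than in 2iJ and as lower in TSCs than in 2iJ+B−A, passed the filter only through 2iJ+B−A. The homeobox gene Msx2 had 9.80 CPM in 2i−L, 17.9 in 2iJ, then 76.6 in 2iJ+B−A and 28.7 in the TSCs, and the forkhead gene Foxi3 had 1.29, 3.29, 8.14 and 0.142 CPM. Dlx3, which acts in both epidermis and placenta, had 1.53, 1.08, 18.5 and 28.3 CPM. Msx2 and Foxi3 thus peaked with Tfap2a in 2iJ+B−A, while Dlx3 was higher still in TSCs. Of 7 neural crest genes, 3 were higher in 2iJ+B−A than in 2iJ (Sox9, Foxd3 and Snai2) and 0 lower. The shares of all genes were 5.81% and 3.17%, and Sox9 and Snai2 reached only 1.01 and 3.43 CPM in 2iJ+B−A. Foxd3 had 8.15, 11.8, 25.1 and 0.142 CPM. In TSCs, 4 of the 7 were higher and 2 lower, both against 2iJ and against 2iJ+B−A, where 37.0% and 32.6% of all genes were past 2‐fold. Sox10 and Zic1, counted as higher, passed the filter only through TSCs. Sox9 passed it only through 2iJ+B−A and TSCs, and is counted as higher in both.

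The last list held 8 genes described as AP‐2 targets in epithelial cells, of which 7 passed the filter, and Krt14, Kit and Cdh1 stand also in lists above. None of the 7 was past 2‐fold between 2iJ and 2i−L (2.15% of all genes) or between 2iJ+B−A and 2iJ (8.97%). In 2iJ+B−A against 2iJ the median log2 ratio was -0.18. In TSCs, 4 were higher and 1 lower than in 2iJ (37.0% of all genes past 2‐fold), and 3 were higher and 1 lower than in 2iJ+B−A (32.6%). The receptor gene Erbb2 had 10.9 CPM in 2i−L, 9.29 in 2iJ, then 15.4 in 2iJ+B−A and 64.7 in the TSCs, and Erbb3 had 33.2, 54.2, 47.4 and 341 CPM. Kit had 208 CPM in 2i−L, 141 in 2iJ, then 104 in 2iJ+B−A and 4.79 in the TSCs. The receptors Erbb2 and Erbb3 were thus highest with Tfap2c in TSCs, and Kit was lowest there.

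**Figure D4:**
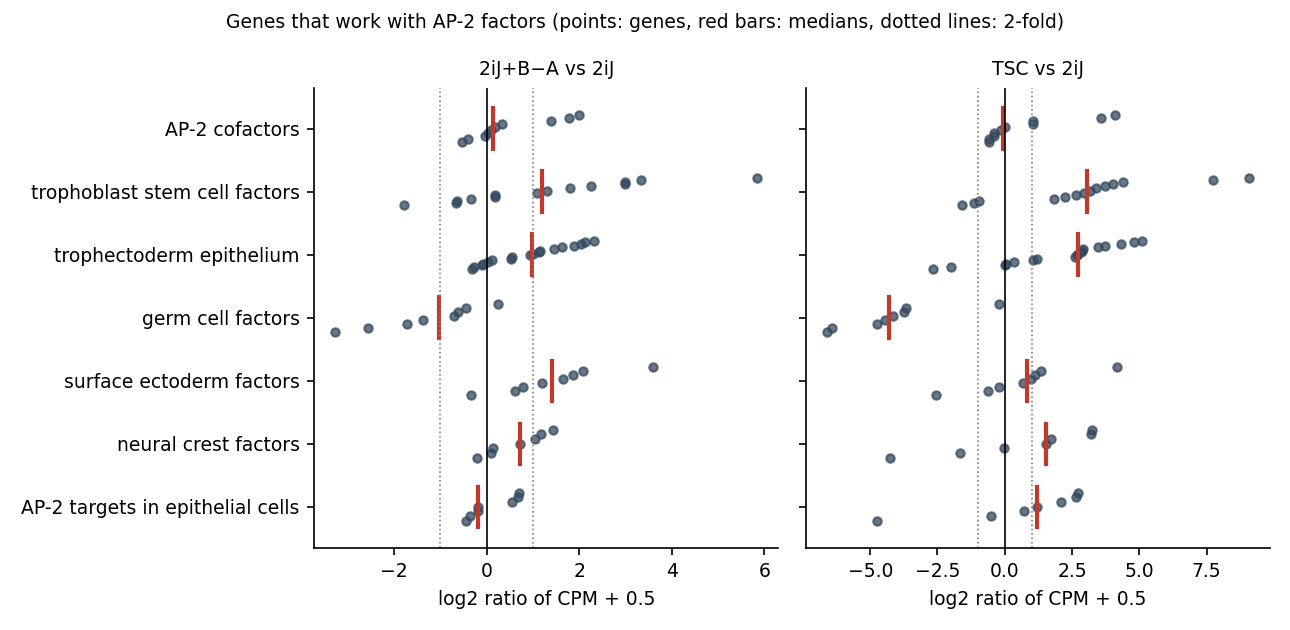
Log2 ratio of CPM plus 0.5 of each gene that passed the filter (points) in 7 lists. The lists hold AP‐2 cofactors, described targets and genes of cell types where AP‐2 factors act. Red bars are list medians and dotted lines mark 2‐fold. The left panel shows 2iJ+B−A against 2iJ and the right panel TSCs against 2iJ, with 1 sample per condition and no error bars. On the left the trophoblast stem cell factors have a median of 1.20 and the germ cell factors one of -1.03.

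The recognition palindrome of AP‐2, GCCNNNGGC, was searched in promoter windows of 250 bases before and 50 bases after annotated start sites (RefSeq, GRCm38.p6), and it reads the same on both strands. Windows were given for 4 of the 5 members, Tfap2a, Tfap2b, Tfap2d and Tfap2e, and 0 of their 7 windows held these letters. Of all 27025 genes with windows, 18.5% held a match. Of the trophoblast stem cell factors with windows, 4 of 12 held one (33.3%), and of the trophectoderm epithelium genes 7 of 13 (53.8%). Matches were also found in 3 of 7 cofactors, 3 of 5 germ cell factors, 1 of 6 surface ectoderm genes, 1 of 2 neural crest genes and 2 of 6 epithelial targets. The trophoblast and epithelium lists were also richer in G and C, with a median of 66.0% and 64.0% compared with 53.3% for all genes, and the share was not adjusted for that. Matches upstream of genes described above are printed with 10 bases on each side to show what the sequence looks like. In each line 1 palindrome is in capitals.

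Cdx2, GRCm38.p6 chr5:147307247-147307275 (−): atcacgtaagGCCGCTGGCctgggactcc
Gata2, GRCm38.p6 chr6:88198432-88198460 (+): tgcagggtctGCCCACGGCgaaggtcccc
Gata3, GRCm38.p6 chr2:9878813-9878841 (−): cggcccctctGCCCTAGGCggcccttggc
Krt18, GRCm38.p6 chr15:102028123-102028151 (+): cgatcctggcGCCCCCGGCtccggtggct
Pard6b, GRCm38.p6 chr2:168080843-168080871 (+): attggctgacGCCGCGGGCgcaggtgcgc

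Counted from the start site, the match in capitals begins at -16 in Cdx2, -83 in Krt18, -151 in Pard6b, -222 in Gata2 and -231 in Gata3. Gata3 holds further matches, and the match at -221, GCCCTTGGC, lies in small letters in the right flank printed for it. These 5 genes were chosen for printing after their values were seen, and all were higher past 2‐fold in 2iJ+B−A and in TSCs than in 2iJ. Of the other genes of both lists with a match, Krt7, Cldn3 and Sox21 were higher past 2‐fold in 2iJ+B−A, and Tjp1, Ocln and Dsp were not. In the whole lists, with or without a match, 8 of 14 and 9 of 18 genes were higher there, beside 5.81% of all genes. Whether a match goes with these differences was not tested. No binding was measured, so a match describes the letters and not a site in use.

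Genes whose pattern over the 4 samples was most like that of a member were listed by Euclidean distance between centred log2 profiles, among 10263 genes with at least 10 CPM in some sample. For Tfap2a they were Dact1, a Dishevelled‐binding regulator of Wnt signaling, at a distance of 0.11, followed by Cyp7b1, an oxysterol hydroxylase, at 0.23, 2810030E01Rik at 0.25, Igfbp5 at 0.26 and Car8 at 0.28. Dact1 had 3.55 CPM in 2i−L, 4.19 in 2iJ, then 13.3 in 2iJ+B−A and 0.712 in the TSCs. For Tfap2c the nearest were D930048N14Rik, Dcun1d4, Clip3, the semaphorin receptor Plxnb2 and Grhl3, with distances between 0.08 and 0.10. Grhl3, a grainyhead factor listed above with the surface ectoderm genes, had 25.4, 24.3, 19.3 and 54.1 CPM and so followed Tfap2c rather than Tfap2a. With 4 points per gene, many genes lie close to any profile.

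**Figure D5:**
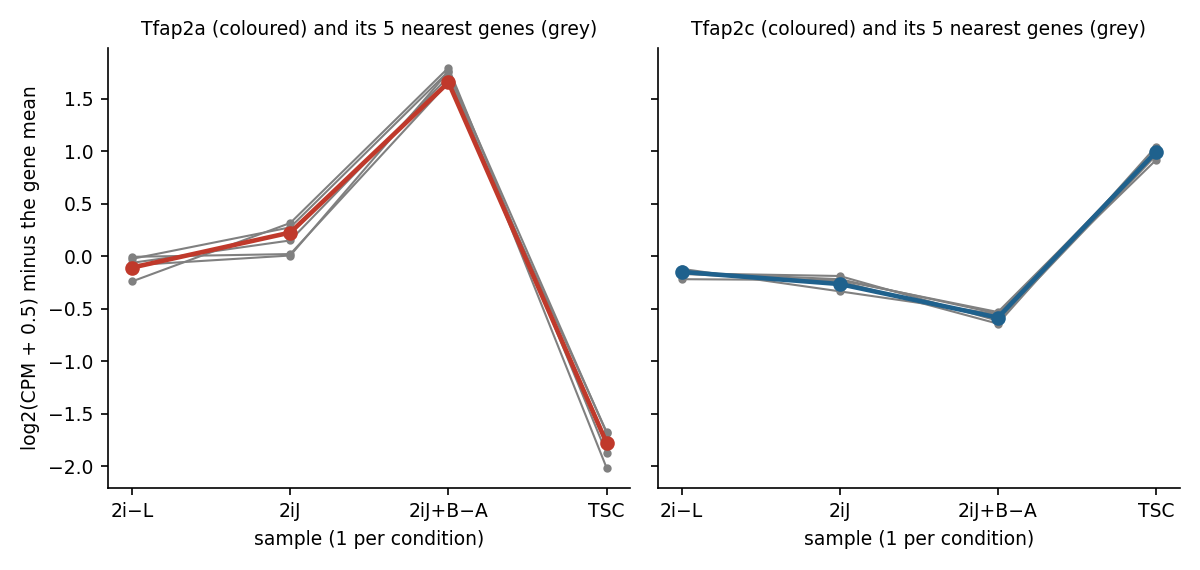
Log2(CPM plus 0.5) minus the mean of each gene over the 4 samples (1 per condition), for Tfap2a on the left and Tfap2c on the right in colour and for the 5 nearest genes of each in grey, with lines that only join the samples and no error bars. The Tfap2a group peaks in 2iJ+B−A and is lowest in TSCs, and the Tfap2c group is highest in TSCs.

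The genes next to the members on the chromosome were read last. Right of Tfap2a, Gcnt2 at a distance of 126 kb had 58.3 CPM in 2i−L, 64.1 in 2iJ, then 41.6 in 2iJ+B−A and 138 in the TSCs, so that it was lowest where Tfap2a was highest and highest where Tfap2a was lowest, and Pak1ip1 at 267 kb had 111 to 144 CPM. Left of Tfap2a, Gm9979 at 7.73 kb had at most 15 counts and Ofcc1 had 0. Next to Tfap2c, Bmp7, a BMP ligand at 309 kb, had 9.92, 7.16, 12.0 and 14.2 CPM, and 2410001C21Rik had 49.7, 52.3, 68.1 and 59.3 CPM. The other neighbours of Tfap2c, 1700029J11Rik and Spo11, had at most 6 and 18 counts. Tfap2e, with at most 15 counts, lies 6.29 kb from Psmb2 and 7.51 kb from Ncdn, which had 122 to 135 CPM and 36.9 to 44.3 CPM. Beyond them, 5730409E04Rik had 4.66, 5.21, 4.45 and 9.31 CPM and AU040320 had 11.6, 12.1, 21.2 and 47.9 CPM. A low AP‐2 gene thus stood between expressed neighbours on chromosome 4, whereas around Tfap2d and Tfap2b the defensin gene Defb41 and Gm15386 had 0 counts, Il17a had at most 1 count and Pkhd1 had at most 2.01 CPM.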

How the data were processed

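Poly‐A RNA was sequenced as read pairs of 126 bases from strand‐specific libraries. Per the labels, the submitters' processing notes name CASAVA 1.8.2, cutadapt and STAR 2.4.2a with the NCBIM37 genome. The authors deposited whole‐number counts per gene from STAR without normalization, with pairs that map to 1 place counted and between 6.72% and 7.01% mapping to several places. The pairs not counted on a gene (16.42% to 17.77%) were left out of library sizes. The column for reverse‐stranded libraries was read.

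Symbols and positions came from the NCBIM37 annotation, which held 37205 of 37620 identifiers. Counts were scaled with TMM factors (edgeR 4.0.16, R 4.3.3), between 0.969 and 1.035. Genes below 1 CPM in all 4 samples were left out, and the remaining 14263 were compared as log2 ratios after adding 0.5 CPM, which understates differences of low genes. A gene was past 2‐fold when its log2 ratio was 1 or more in size. RPKM used the union of annotated exons. With 1 sample per condition no model with replicates could be fitted and no test was made. Intervals are 95% exact Poisson intervals for levels and Clopper–Pearson intervals for ratios, and PCR duplicates were not removed. Intervals were computed in scipy 1.17.1 (Python 3.11.15, pandas 2.3.3, numpy 2.4.6) and plots were drawn in matplotlib 3.10.9. The scripts were tested on simulated counts.

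The members and gene lists were chosen with earlier results of these data known. Named genes were all members, for Tfap2a and Tfap2c the 5 genes with the nearest profile, the nearest 2 protein‐coding genes on each side, and genes of the lists on which the account turns. Coding‐sequence identity stands in for protein identity, since no protein sequences were used. Alternatives were the unstranded count, DESeq2 1.42.0 size factors, total counts, no filter, pseudocounts of 0.1 and 1 CPM, and 2i−L as reference.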

Additional observations from a re-analysis of the deposited data

Results flagged for a closer look

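Counts on the strand opposite to Tfap2a and Tfap2c, which the comparisons do not use, were above the limit of 3 counts in every sample. Opposite to Tfap2a there were 8 counts in 2i−L, 14 in 2iJ, then 12 in 2iJ+B−A and 6 in the TSCs, between 0.774% and 4.88% of the counts on both strands. A lincRNA on the opposite strand, Gm16989 at chr13:40823177-40830514 in NCBIM37, overlaps the 5′ part of Tfap2a and had 4, 2, 10 and 0 counts of its own. It was chosen after its values were seen. Opposite to Tfap2c there were 22, 19, 22 and 34 counts, at most 0.513% of the counts on both strands. Over all genes, the opposite strand held between 3.02% and 3.32% of the counts on both strands. The source of these counts was not tested.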

How the results depend on the processing

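The members past 2‐fold were within 1.5 times the reported number in 26 of 26 alternatives, and 0 members past 2‐fold changed direction. Tfap2e, which was not past it, had a log2 ratio of -0.11 for TSCs against 2iJ and of 0.02 against 2i−L. Without the filter, Tfap2b was added as lower in TSCs than in 2iJ+B−A, which makes 3 members there. With the same reference sample, the log2 ratio of Tfap2a ranged from 1.38 to 1.48 for 2iJ+B−A and from -2.13 to -1.87 for TSCs, both against 2iJ, and that of Tfap2c from -0.33 to -0.27 and from 1.26 to 1.34. With 2i−L as reference they were 1.76 and -1.67 for Tfap2a and -0.44 and 1.15 for Tfap2c. For 2iJ against 2i−L, the 306 genes past 2‐fold became 652 with a pseudocount of 0.1 CPM and 181 with 1 CPM. Only the pseudocount differed between these settings, and the same 14263 genes were compared. With 0.1 CPM, Tfap2b went from 0.67 to 1.50 in that comparison, and for TSCs from -0.91 to -2.42 against 2iJ and from -1.01 to -2.60 against 2iJ+B−A. No paired analysis was possible because each condition has 1 sample. Depth limits Tfap2b, Tfap2d and Tfap2e, which had at most 19 counts, and no alternative stands in for repeated cultures.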
